A study of Mus musculus with 4 samples.

Results

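The clustered histone genes of the mouse were examined for Sub1 binding in normal and leukemic stem cells. The members were the protein-coding RefSeq genes whose symbol starts with H1f, H2ac, H2bc, H3c or H4c and a digit, or which carried an older Hist1 to Hist4 name. They numbered 71 of 21887 protein-coding genes of the GRCm38.p6 annotation, with 10 linker histone (H1) genes, 18 H2A, 18 H2B, 12 H3 and 13 H4 genes. By the names, 64 of the 71 are replication-dependent genes. The rule also took in 7 others: H1f0 and H1f10, linker genes that are not tied to replication, H1f7 and H1f8, germline linker genes, and H1f6, H2ac1 and H2bc1, testis genes. The label of the set therefore fitted 64 members and not these 7.

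Sub1 was mapped by CUT&Tag, in which an antibody directs a transposase to chromatin and the cut fragments are sequenced. Sub1 is a nuclear protein that binds DNA and acts as a cofactor of transcription by RNA polymerase II. The 4 libraries came from sorted bone marrow cells of mice carrying 1 floxed allele of Nup214, a nuclear pore gene, written Nup214fl/+ in the labels, and no Cre driver is named for either group. The 2 hematopoietic stem cell libraries (HSC 1 and HSC 2) came from CD48-CD150+LSK cells of Nup214fl/+ mice, and the 2 leukemia stem cell libraries (LSC 1 and LSC 2) from cells of MLL-AF9-driven Nup214fl/+ mice sorted as Lin-, Sca-1- and c-Kit+ and as positive for both CD16/32 and CD34. MLL-AF9 is a fusion oncogene of acute myeloid leukemia. The cell type field of the labels reads hematopoietic stem cell for all 4 libraries, so the groups rest on the titles. The names of the peaks in the deposited lists begin with H4-Cut, which no label explains, and that the lists hold Sub1 peaks rests on the labels alone. The ages of the mice, how MLL-AF9 was delivered and whether the 2 libraries of one group are from different animals are not given in the sources used here, so any spread between libraries may be technical.

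Replication-dependent histone genes supply the core and linker histones that package newly made DNA. They are short and mostly without introns, lie in tandem clusters, and are transcribed mainly in S phase in a nuclear structure called the histone locus body, where Npat is the organising factor. Their messenger RNAs end in a stem-loop bound by Slbp in place of a poly(A) tail. Replication-independent histone genes, such as H3f3a or H3f3b, lie alone and are made throughout the cell cycle.

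The lists held 115881 peaks (HSC 1), 235680 (HSC 2), 41097 (LSC 1) and 34185 (LSC 2). The fold and -log10 p of a peak are the authors' values, and both ordered the peaks of a library identically. No read counts were given, so peaks were compared by presence and by rank within a library. Among 7 genes of the sorting markers, 7 carried a peak in each HSC library (68.9% and 82.4% of all genes) and 5 in each LSC library (61.8% and 57.3%). Slamf1, the gene of CD150, and Ly6a, the gene of Sca-1, were the 2 without one in LSCs (7.71% of all genes were in HSCs alone). Their HSC peaks were weak. Those of Slamf1 ranked 101670 and 50143, beyond the full length of both LSC lists, and those of Ly6a 32376 and 33174. Cd48 had peaks in both HSC libraries, although HSCs were sorted as CD48-. Fcgr3 ranked higher in HSCs (110 and 439) than in LSCs (4386 and 2935), while Cd48, Kit and Cd34 ranked higher in LSCs. A peak list cannot tell fewer bound cells from less Sub1 per cell.

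The RefSeq promoters of 67 starts of 66 members were available, from 250 bases before to 50 after the start, and 8 are shown because the results below turn on them. The best ranked peak of all members covered H3c15 in both HSC libraries and H1f5 in both LSC libraries. In HSC 2 the summit of that wide peak lay 7146 bp from the H3c15 start and 412 bp from the H3c14 start. H2bc15 and H2ac15 form a divergent pair on the same DNA, and H2aw carries an octamer. H4c18 and H4c17 share a run of 285 bases. H2bu2 had the weakest peaks among the replication-dependent genes, and H2bc1 is a testis gene with a peak in 1 library. Sequences run 5′ to 3′ on the strand of the gene (RefSeq, GRCm38.p6). Capitals mark 3 promoter motifs on either strand, the TATA box (TATAAA), the CCAAT box (CCAAT) and the octamer (ATTTGCAT).
H3c15, chr3:96239078-96239377, minus strand: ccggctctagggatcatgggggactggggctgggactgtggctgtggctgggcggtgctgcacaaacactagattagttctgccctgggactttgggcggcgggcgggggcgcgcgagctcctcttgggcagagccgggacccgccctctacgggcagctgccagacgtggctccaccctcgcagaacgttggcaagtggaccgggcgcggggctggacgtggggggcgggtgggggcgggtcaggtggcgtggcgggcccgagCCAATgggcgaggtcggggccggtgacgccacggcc
H1f5, chr13:21780576-21780875, minus strand: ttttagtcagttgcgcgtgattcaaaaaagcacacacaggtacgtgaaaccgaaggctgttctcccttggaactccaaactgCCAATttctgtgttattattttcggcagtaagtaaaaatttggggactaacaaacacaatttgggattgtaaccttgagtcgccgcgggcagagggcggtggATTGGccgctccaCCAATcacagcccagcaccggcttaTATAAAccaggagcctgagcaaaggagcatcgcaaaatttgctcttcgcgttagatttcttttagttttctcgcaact
H2bc15, chr13:21753826-21754125, plus strand: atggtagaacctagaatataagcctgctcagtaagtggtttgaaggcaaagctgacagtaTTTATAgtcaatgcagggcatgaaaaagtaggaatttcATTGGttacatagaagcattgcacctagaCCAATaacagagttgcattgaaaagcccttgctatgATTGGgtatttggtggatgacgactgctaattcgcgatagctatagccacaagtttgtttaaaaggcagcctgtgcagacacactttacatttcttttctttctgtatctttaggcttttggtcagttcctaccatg
H2aw, chr11:58954435-58954734, plus strand: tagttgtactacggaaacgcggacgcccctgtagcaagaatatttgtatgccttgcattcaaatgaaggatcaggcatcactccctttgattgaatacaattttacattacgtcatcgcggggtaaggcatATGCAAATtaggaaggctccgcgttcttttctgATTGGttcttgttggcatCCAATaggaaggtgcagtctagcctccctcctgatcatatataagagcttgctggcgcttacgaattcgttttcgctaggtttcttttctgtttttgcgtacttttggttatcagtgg
H4c18, chr13:21832148-21832447, minus strand: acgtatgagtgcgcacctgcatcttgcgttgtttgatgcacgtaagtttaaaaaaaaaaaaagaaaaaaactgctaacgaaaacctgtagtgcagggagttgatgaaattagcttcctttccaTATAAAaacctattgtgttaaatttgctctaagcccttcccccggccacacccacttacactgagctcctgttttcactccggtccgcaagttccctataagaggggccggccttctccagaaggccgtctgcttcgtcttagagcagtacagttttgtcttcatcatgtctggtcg
H4c17, chr13:21811496-21811795, plus strand: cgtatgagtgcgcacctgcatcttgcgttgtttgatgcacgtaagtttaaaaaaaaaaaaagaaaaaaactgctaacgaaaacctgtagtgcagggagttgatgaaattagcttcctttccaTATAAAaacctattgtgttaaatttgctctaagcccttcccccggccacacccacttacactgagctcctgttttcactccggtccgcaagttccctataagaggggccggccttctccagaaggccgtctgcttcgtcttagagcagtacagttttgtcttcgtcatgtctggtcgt
H2bu2, chr11:58948661-58948960, plus strand: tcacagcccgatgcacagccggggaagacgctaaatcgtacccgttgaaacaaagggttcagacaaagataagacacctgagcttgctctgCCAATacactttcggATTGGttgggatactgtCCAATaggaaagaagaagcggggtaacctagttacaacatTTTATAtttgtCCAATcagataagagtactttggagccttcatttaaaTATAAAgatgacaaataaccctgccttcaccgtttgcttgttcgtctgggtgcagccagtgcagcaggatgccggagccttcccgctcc
H2bc1, chr13:23934107-23934406, minus strand: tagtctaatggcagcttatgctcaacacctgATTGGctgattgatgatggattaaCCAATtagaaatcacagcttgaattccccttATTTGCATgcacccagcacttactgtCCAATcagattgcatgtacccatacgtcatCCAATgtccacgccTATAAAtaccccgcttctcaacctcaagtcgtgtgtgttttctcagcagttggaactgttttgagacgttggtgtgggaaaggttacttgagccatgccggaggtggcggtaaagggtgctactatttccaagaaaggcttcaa

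The motifs were not shared by all classes. The TATAAA letters stood in 35 of 67 member promoters (52.2%), against 12.6% of 21263 promoters of protein-coding genes, and CCAAT in 55 (82.1%) against 38.2%. The octamer, a binding sequence of Pou2f1 (Oct-1), stood in 14 (20.9%) against 1.66%. CCAAT was found in all 18 H2A, all 17 H2B and all 10 H3 promoters and in 3 of 12 H4 promoters, and the octamer in 7 H2A and 7 H2B promoters and none of the H1, H3 or H4 promoters. The member promoters were lower in GC, with a median of 45.7% against 56.3%. A match is a description of letters and no evidence of binding. Several promoters are near copies: those of H2bc23 and H4bc24 (an H2B gene by its older name) were identical over 300 bases, and H3c14 and H3c15 shared a run of 231 bases and H2ac18 and H2ac19 one of 219. How reads that match both copies were assigned is not given in the sources used here, so values of these genes are uncertain as to which copy they belong to.

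Sub1 peaks lay at nearly every histone gene in both cell types. With the gene extended by 1 kb on each side, 67 of 71 members carried a peak in HSC 1 (68.9% of all protein-coding genes did), 71 in HSC 2 (82.4%), 67 in LSC 1 (61.8%) and 66 in LSC 2 (57.3%). In all 4 libraries a peak was found at 66 members, against 55.4% of all genes and 6.79% of the 1577 genes of 1 kb or shorter. Each of the 64 replication-dependent members carried a peak in every library. The group means were 69 ± 2.83 in HSCs and 66.5 ± 0.707 in LSCs (SD, n = 2 each), a difference of 2.5 members (p = 0.667, two-sided exact permutation test, in which 2 against 2 libraries cannot go below 0.33). The difference came from HSC 2, and without that library it was 0.5. Over the 64 replication-dependent members it was 0.0.

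The 7 other members were occupied unevenly. A peak was present at 3 of them in HSC 1, 7 in HSC 2, 3 in LSC 1 and 2 in LSC 2. H1f0, a linker of differentiated and resting cells, carried peaks of fold 17.4, 10.7, 58.1 and 29.8 in that order. H1f6 had peaks within its window in all 4 libraries, but it lies close to H4c3, and the same peaks reached both genes in HSC 2 and LSC 1. H1f10 carried weak peaks of fold 4.42 in HSC 1, 5.19 in HSC 2 and 8.12 in LSC 1, and none in LSC 2. The testis pair H2bc1 and H2ac1 shared 1 peak of fold 5.67 in HSC 2 and had none elsewhere, although the H2bc1 promoter printed above holds all 3 motifs. H1f7 and H1f8 likewise had peaks in HSC 2 alone, of fold 14.4 and 4.01. HSC 2 had the longest list of the 4.

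No member was found in one cell type alone in the lists as deposited. The count of members occupied in each HSC library but in no LSC library was 0 (7.71% of all genes), and the reverse was 0 (0.0959%). Without HSC 1 the first count became 4, the genes H1f7, H1f8, H2ac1 and H2bc1. The share of all genes without HSC 1 is not given here. Lists of equal length were made by taking the strongest peaks of each library. In lists of 34185 peaks the counts were 0 in HSCs alone (0.489% of all genes) and 1 in LSCs alone (2.59%), the latter H2bu2. In lists of 17092 peaks both counts were 0 (0.356% and 3.87%). In lists of 4273 peaks 21 members were in HSCs alone (1.67%) and 0 in LSCs alone (1.67%). The 4273 strongest peaks reached 37 members in HSC 1 (23.8% of all genes), 32 in HSC 2 (23.4%), 0 in LSC 1 (23.9%) and 9 in LSC 2 (24.6%). The histone genes were thus reached in every library, and at different depths of the lists.

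The 21 members reached in HSCs alone by the 4273 strongest peaks came from 4 of the 5 classes. They were 7 H2A genes (H2ac10, H2ac11, H2ac15, H2ac20, H2ac21, H2ac23 and H2ac24), 6 H2B genes (H2bc9, H2bc11, H2bc15, H2bc21, H2bc23 and H4bc24), 6 H4 genes (H4c8, H4c9, H4c12, H4c14, H4c17 and H4c18) and 2 H3 genes (H3c7 and H3c8). In both HSC libraries only H4c14 had its strongest peak to itself. The others lay under peaks shared by 2 or 3 neighbours of more than 1 class, so these genes and classes are not separate observations. With each library left out in turn the count ran from 21 to 29 (2.27% to 3.32% of all genes), and the count in LSCs alone was 0, or 1 without LSC 1 (2.87% to 3.74% of all genes).

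**Figure D1:**
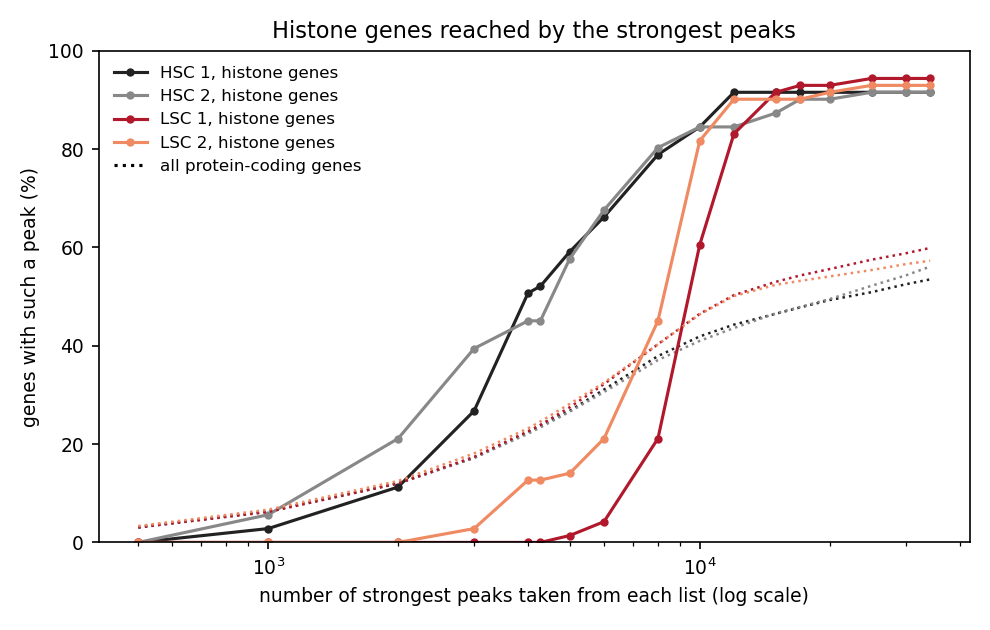
Share of histone genes (solid lines, % of 71) and of all protein-coding genes (dotted lines, %) with a peak among the strongest peaks of each library, against the number of peaks taken (log scale). At 4000 peaks the HSC lines stand at 36 and 32 histone genes and the LSC lines at 0 and 9, the 4 dotted lines lie close together, and by 15000 peaks all 4 libraries reach between 62 and 65 histone genes.

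In the plot of histone genes by list length, both HSC libraries lay above both LSC libraries from 1000 to 10000 peaks and not at 12000 peaks or more. Among the strongest 3000 peaks there were 19 histone genes in HSC 1, 28 in HSC 2, 0 in LSC 1 and 2 in LSC 2, while the share of all genes reached was 17.2%, 17.2%, 17.4% and 18.1% in that order. Among 8000 peaks they numbered 56, 57, 15 and 32 (37.9%, 37.1%, 40.3% and 40.3% of all genes). Among 12000 peaks they numbered 65, 60, 59 and 64 (44.3%, 43.6%, 50.3% and 50.1%). The best ranked histone peak was number 511 in HSC 1, 559 in HSC 2, 4567 in LSC 1 and 2088 in LSC 2. In the LSC lists the histone genes therefore entered mostly between peak 6000 and peak 12000. In the HSC lists they entered mostly between peak 2000 and peak 8000.

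Among peaks of the same library, the strongest peak of a histone gene stood high in HSCs and lower in LSCs. Its median percentile over occupied members was 96.59 in HSC 1, 98.14 in HSC 2, 76.91 in LSC 1 and 76.28 in LSC 2. The HSC mean was 97.37 ± 1.10 and the LSC mean 76.60 ± 0.444 (SD, n = 2 each), a difference of 20.77 percentile points (p = 0.333, two-sided exact permutation test, the smallest value the design allows). Both HSC libraries lay above both LSC libraries. This percentile also moves with the number of weak peaks in a list, and the HSC lists are the longer ones. The corresponding median ranks were 3923, 4362, 9481 and 8099 from the top. The median folds of 34.1, 41.9, 43.1 and 41.1 did not separate the groups, and folds of different libraries stand against different backgrounds.

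A second ranking took genes in place of peaks, so that list length had less weight. It was added after the values above were seen. Each of 17492 protein-coding genes with a start in the RefSeq promoter table, 66 histone genes among them, was ranked in each library by its strongest peak within 1 kb of a start. A start peak was found at 62 histone genes in HSC 1 (56.1% of all genes), 65 in HSC 2 (63.5%), 62 in LSC 1 (55%) and 61 in LSC 2 (52.8%). The median gene percentile of the 66 was 78.03 in HSC 1, 77.05 in HSC 2, 56.12 in LSC 1 and 60.59 in LSC 2. The median over all genes with a start peak was 71.87, 68.29, 72.47 and 73.56. Histone genes thus stood above that level in both HSC libraries and below it in both LSC libraries. The HSC and LSC means were 77.54 ± 0.693 and 58.35 ± 3.16 (SD, n = 2 each) and differed by 19.18 points (p = 0.333, two-sided exact permutation test, the smallest value the design allows).

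Individual genes ran the same way. Among the top 10% of genes there were 8 of 66 histone genes in HSC 1, near the share of all genes (9.95%). There were 14 in HSC 2 (10%), 0 in LSC 1 (10%) and 0 in LSC 2 (10%). Several of these genes share 1 peak, such as H3c15 and H2ac19. Of the 61 histone genes with a start peak in all 4 libraries, 56 (91.8%) had both HSC percentiles above both LSC percentiles, against 21.7% of 8712 genes. The reverse was seen at 1 histone gene, H2bu2, against 24.8%. The median difference of HSC minus LSC was 17.42 points over the 61 genes and -0.7632 over the 8712. With 1 library left out at a time, 56 to 59 of 61 or 62 histone genes were higher in HSCs, against 30.2% to 37.6% of all genes. Genes that share all 4 start peaks are not separate observations, and counted once they were 37, of which 32 were higher in HSCs and 1 lower.

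**Figure D2:**
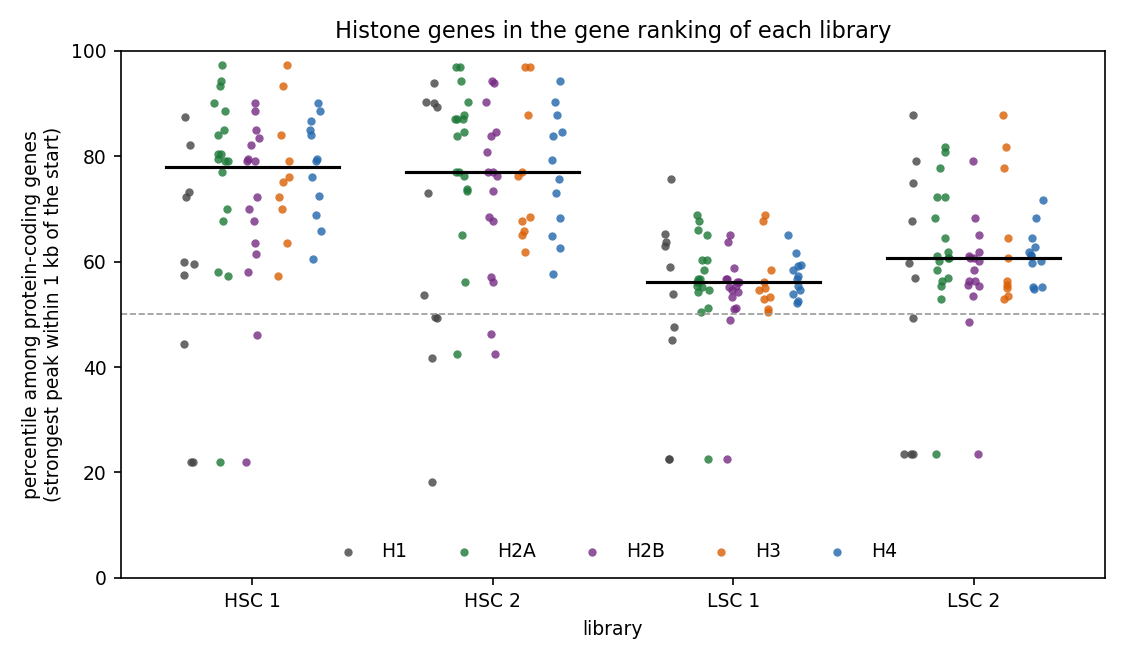
Gene percentile (strongest peak within 1 kb of the start, 0 to 100 among 17492 genes) of 66 histone genes in each library, with 1 point a gene coloured by class, the median as a black bar and the dashed line at 50. The bars stand at 78.03 and 77.05 for the HSC libraries and at 56.12 and 60.59 for the LSC libraries, and points at the bottom are genes with no start peak.

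The size of this difference depended on how wide peaks were credited to genes. Where the summit itself had to lie within 1 kb of the start, the medians were 63.68 (HSC 1), 61.37 (HSC 2), 55.91 (LSC 1) and 58.51 (LSC 2), a difference of 5.315 points (p = 0.333, two-sided exact permutation test). Under that rule 42, 42, 46 and 40 of 67 member starts had a summit in range in HSC 1, HSC 2, LSC 1 and LSC 2, and a start without one entered with no peak. Only 24 histone genes then kept a peak in all 4 libraries, and 21 of these were higher in both HSC libraries (21.4% of 7414 genes) and 1 was lower (22.1%), with a median difference of 15.82 points. The strongest start peaks were wider at histone genes than at all genes, with medians of 3820, 3860, 2702 and 4305 bp against 1754, 1836, 2406 and 2764 bp in HSC 1, HSC 2, LSC 1 and LSC 2. The median distance from a member start to the nearest summit was 595, 694.5, 400 and 527 bp, against 313, 403, 268 and 328 bp at all starts with a peak. The part of peak width in the difference was not tested.

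**Figure D3:**
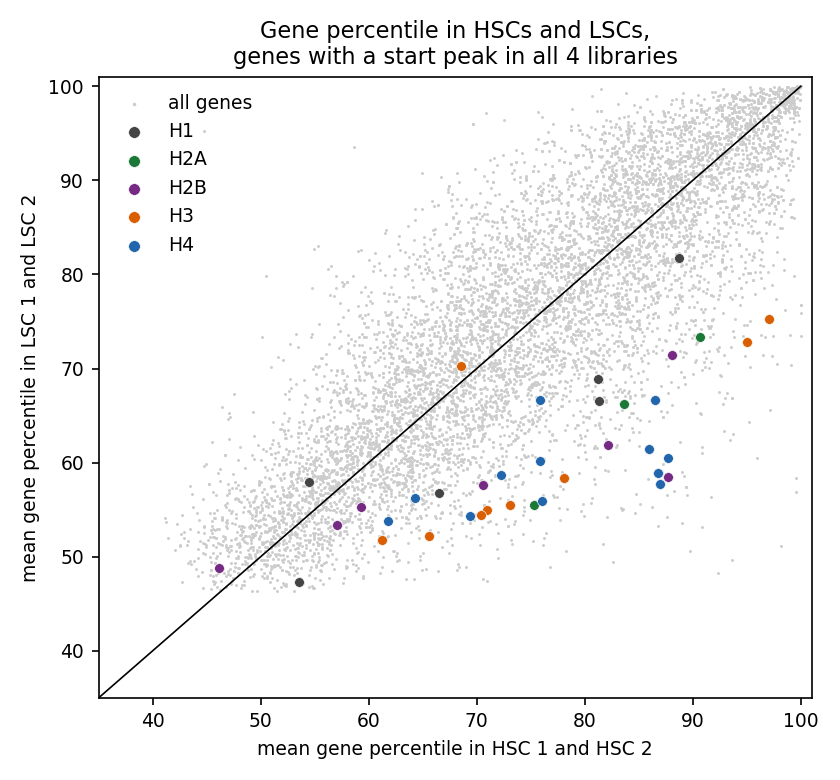
Mean gene percentile in the 2 LSC libraries against that in the 2 HSC libraries, for 8712 genes with a start peak in all 4 libraries (grey) and 61 histone genes among them (coloured by class, genes with shared peaks lie on top of each other). The line marks equal percentiles, and most histone genes lie below it, with a median difference of 17.42 points.

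By class, nearly all core histone genes stood higher in the HSC rankings. Both HSC percentiles lay above both LSC percentiles at 17 of 17 H2A genes, 14 of 15 H2B genes, 9 of 10 H3 genes and 12 of 12 H4 genes, with median differences of 19.72, 17.65, 16.79 and 17.71 points. Among H1 genes it was 4 of 7, with a median of 9.743. The 7 include H1f0 and H1f6, which are not replication-dependent. H1f6 is among the 4 by a narrow margin, with 57.51 and 49.52 in HSCs and 45.21 and 49.38 in LSCs. H2A and H2B form the dimers of the nucleosome and H3 and H4 its central tetramer, while H1 binds the linker DNA. The classes share peaks, so their counts are not independent, and the difference between classes was not tested.

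Among the linker genes, H1f5 is a replication-dependent linker gene in the first chromosome 13 block, at 21779832 to 21780625. Its strongest peak had a fold of 42.7 in HSC 1, 64.8 in HSC 2, 122 in LSC 1 and 124 in LSC 2, the highest of any member in the LSC libraries. Its gene percentiles were 87.34, 90.12, 75.65 and 87.75, so that LSC 2 overlapped the HSC libraries. H1f4 had percentiles of 82.20 and 93.96 in HSCs and 63.65 and 79.14 in LSCs, with no overlap. H1f2, with 73.28 and 89.35 against 65.23 and 67.76, and H1f1, with 59.92 and 73.04 against 53.77 and 59.71, also did not overlap. H1f3 overlapped, at 72.18 and 90.28 in HSCs and 62.91 and 74.91 in LSCs. H1f0, which is not tied to replication, stood at 59.62 and 49.26 in HSCs and at 59.02 and 56.80 in LSCs.

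Most H2A and H2B genes lie as head-to-head pairs that share 1 promoter region and, in these lists, 1 peak. H2ac15 and H2bc15, whose shared promoter is printed above, had gene percentiles of 85.01 and 90.34 in HSCs and 55.22 and 61.76 in LSCs. In HSCs these values belong to a wide peak that also covers H4c12. Its summit lay 3832 and 3958 bp from the H2bc15 start and 309 and 435 bp from the H4c12 start. In LSC 1 and LSC 2 the summit lay 183 and 284 bp from the H2bc15 start, so the values do not compare 1 site. H2ac11 and H2bc11 stood at 79.40 and 94.18 in HSCs and at 56.74 and 61.00 in LSCs. Their peak also covers H4c9, and in every library its summit lay closer to the H4c9 start than to theirs. The pair H2ac24 and H4bc24, under 1 peak with H4c18, had among the largest differences, with 90.16 and 83.76 against 55.33 and 60.19. H2ac22 and H2bc22 differed least among pairs, with 58.00 and 56.18 in HSCs and 51.28 and 55.44 in LSCs. H2bc6 is annotated from 23583670 to 23621124 with 2 starts, and its strongest peak covers one of them and the start of H1f4 in every library. The fold of 37.3, 75.7, 78.5 and 93.6 in HSC 1, HSC 2, LSC 1 and LSC 2 therefore cannot be assigned to one of the 2 genes.

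Among the H3 genes, H3c15 and H2ac19 on chromosome 3 share 1 peak, which had a fold of 63.9 in HSC 1, 89.7 in HSC 2, 98.3 in LSC 1 and 102 in LSC 2. It was peak number 511 of HSC 1, 559 of HSC 2, 5989 of LSC 1 and 3194 of LSC 2. The gene percentiles of both were 97.32 and 96.86 in HSCs and 68.75 and 81.79 in LSCs. H3c14 and H2ac18, the neighbouring near copies, stood at 93.25 and 96.86 against 67.79 and 77.78. The HSC 2 value of all 4 genes is 1 peak. Its summit lay 412 bp from the H3c14 start and 776 bp from that of H2ac18, but 7146 bp from that of H3c15. H3c11 overlapped, with 75.18 and 61.85 in HSCs and 52.84 and 87.75 in LSCs, and its LSC 2 value is the 1 peak that also covers H1f5. Among H4 genes, H4c17 ranked first by the peak percentile in the weakest library of each gene. It had folds of 44.5, 53.1, 84.4 and 62.7 in HSC 1, HSC 2, LSC 1 and LSC 2, from a peak that also covers H2bc23 and H2ac23. The summit lay 48 and 23 bp from the H4c17 start in HSCs and 2380 bp away in both LSC libraries. The LSC folds therefore cannot be assigned to H4c17. The gene percentiles of H4c17 were 88.54, 84.53, 65.10 and 68.31, and were not the highest of the H4 genes in every library. H4c9 stood at 79.40 and 94.18 against 56.74 and 61.00. H4f16 on chromosome 6, the single H4 gene outside the clusters, had folds of 28.5, 45.0, 69.6 and 71.6, and its percentiles of 72.46 and 79.32 lay above 61.54 and 71.71.

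The number of peaks shared by clustered genes was similar in the 4 libraries, while all distinct peaks were fewer in LSCs. Members per peak on chromosome 13 were 1.42, 1.5, 1.76 and 1.97 in HSC 1, HSC 2, LSC 1 and LSC 2. The distinct peaks over all members numbered 80, 76, 50 and 39 in HSC 1, HSC 2, LSC 1 and LSC 2. The means were 78 ± 2.83 in HSCs and 44.5 ± 7.78 in LSCs (SD, n = 2 each), a difference of 33.5 peaks (p = 0.333, two-sided exact permutation test, the smallest value the design allows). In lists of 34185 peaks the difference was 6.0 peaks, and among peaks of fold 20 or more it was -1.5. In lists of 4273 peaks the distinct peaks numbered 16, 15, 0 and 5. The distinct strongest peaks numbered 38, 38, 38 and 34, and 23, 23, 23 and 22 peaks reached 2 or more members. In each library 1 peak reached 5 members, H2ac8, H2bc8, H2bc7, H2ac7 and H3c4, with a fold of 34.1 in HSC 1, 41.9 in HSC 2, 43.1 in LSC 1 and 41.1 in LSC 2.

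The histone genes lie in 2 blocks on chromosome 13, 1 cluster on chromosome 3 and a pair on chromosome 11. The first chromosome 13 block (23 members, 21715711 to 22043658, 327.9 kb) had 23 of 23 members occupied in every library. The second (31 members, 23531044 to 23934913, 403.9 kb) had 29, 31, 29 and 29 in HSC 1, HSC 2, LSC 1 and LSC 2, the exceptions being the testis pair at its far end. The chromosome 3 cluster (10 members, 96219885 to 96270192, 50.31 kb) and the chromosome 11 pair (H2bu2 and H2aw, 58948911 to 58955192, 6.282 kb) were fully occupied. The share of members occupied was 96.3% on chromosome 13 and 100% on chromosome 3 in HSC 1, LSC 1 and LSC 2, and 100% on both in HSC 2 (mean difference -2.778 points, p = 0.25, two-sided exact sign-flip permutation test over 4 libraries, which cannot pass 0.05).

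Peak rank and coverage were also set side by side between the clusters. The median percentile of the strongest peak was 96.59, 98.10, 76.50 and 76.28 on chromosome 13 and 96.82, 99.03, 80.42 and 84.90 on chromosome 3, in HSC 1, HSC 2, LSC 1 and LSC 2. Peaks covered 72.3%, 75.2%, 40.6% and 60.2% of the chromosome 3 span, 38.8%, 51.1%, 24.6% and 33.3% of the first chromosome 13 block and 26.7%, 31.1%, 12.9% and 17.2% of the second. In HSC 2 a peak of 15544 bp (chr3:96234988-96250531) covered H3c15, H2ac19, H2ac18 and H3c14 together. Member windows lie within 1 kb of a member. Of the ground between them in the second chromosome 13 block, peaks covered 13.1% and 17.7% in HSCs and 1.77% and 4.3% in LSCs. In the first block the values were 31.6% and 44.8% in HSCs and 17.4% and 24.4% in LSCs. Coverage also moves with the number of peaks in a list, and the HSC lists are the longer ones. The gene percentile differed between the groups in each cluster, with both HSC libraries above both LSC libraries at 21 of 23 members in the first block, 25 of 26 in the second and 8 of 8 on chromosome 3, with median differences of 19.83, 16.31 and 19.62 points.

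**Figure D4:**
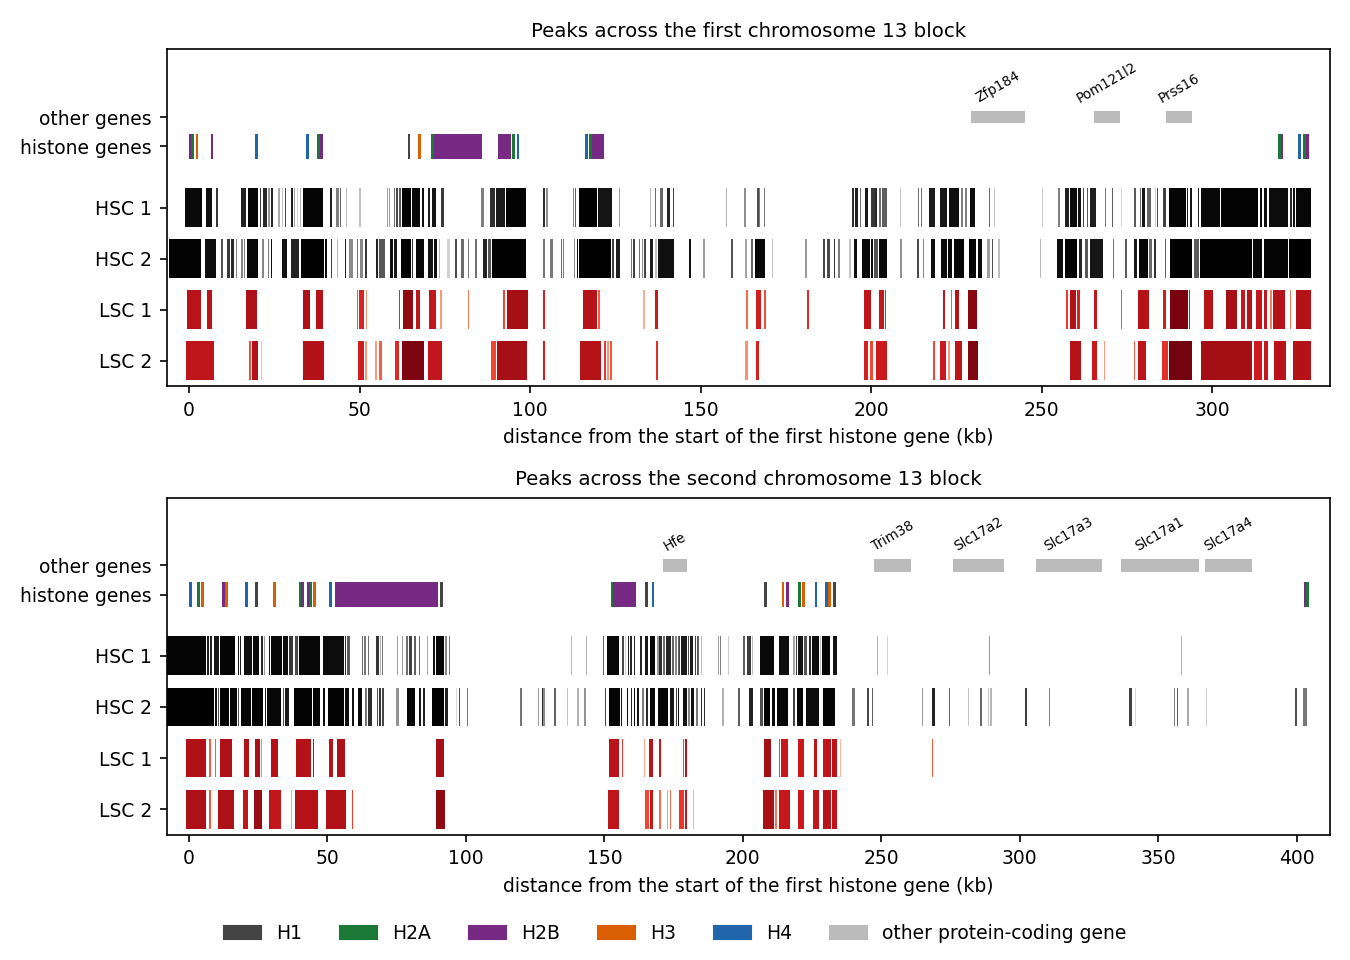
Peaks of each library (grey in HSCs, red in LSCs, darker for a higher percentile among the peaks of the library) and genes along the 2 chromosome 13 blocks, by distance from the first histone gene in kb. Peaks gather under the histone genes (coloured by class) in all 4 libraries. Over Trim38 and the Slc17a genes of the second block both LSC libraries, which have the shorter lists, are nearly bare.

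The other genes of the blocks did not follow one pattern. In the first block all 3 other protein-coding genes, Zfp184, Pom121l2 and Prss16, carried peaks in every library, and Prss16, a thymic peptidase gene, had folds of 41.5, 51.1, 173 and 153 in HSC 1, HSC 2, LSC 1 and LSC 2. The 31 transfer RNA genes annotated in that block, transcribed by RNA polymerase III, were reached at 26, 29, 20 and 20 loci, all by peaks that touch no histone gene window. In the second block Hfe, the hemochromatosis gene that lies among the histone genes, carried peaks in every library. Trim38, Slc17a1 and Slc17a2 had weak peaks of fold 5.4 to 9.09 in both HSC libraries and none in the LSC libraries. The last 2 are from a family of phosphate and anion transporters. Of all genes, 7.71% were in HSCs alone. The strongest HSC peaks of Trim38, Slc17a1 and Slc17a2 ranked between 62675 and 104072, beyond the full length of both LSC lists. Slc17a3 and Slc17a4 had peaks in HSC 2 alone.

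The chromosome 11 pair held the 1 histone gene of 61 with both LSC percentiles above both HSC percentiles. H2bu2, an H2B gene, had folds of 5.90 in HSC 1, 8.03 in HSC 2, 10.6 in LSC 1 and 6.00 in LSC 2, and its strongest peak was number 80212, 77551, 16731 and 22519 in the lists. Its gene percentiles were 45.99 and 46.25 in HSCs and 49.01 and 48.50 in LSCs, a difference of -2.63 points. These values are low for a gene with a start peak. The lowest level such a gene can take moves with the share of genes that have one (56.1%, 63.5%, 55% and 52.8%). The HSC mean was also the lower one at H1f0 (-3.47 points) and H3c11 (-1.78), where the groups overlapped. The H2bu2 promoter, printed above, holds TATAAA and CCAAT. H2aw, the H2A gene of the pair, had folds of 54.5, 58.1, 87.5 and 98.5, and its percentiles of 94.24 and 87.14 in HSCs lay above 65.96 and 80.77 in LSCs. The peak at H2aw also covers the start of Trim17, so it cannot be assigned to one gene.

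**Figure D5:**
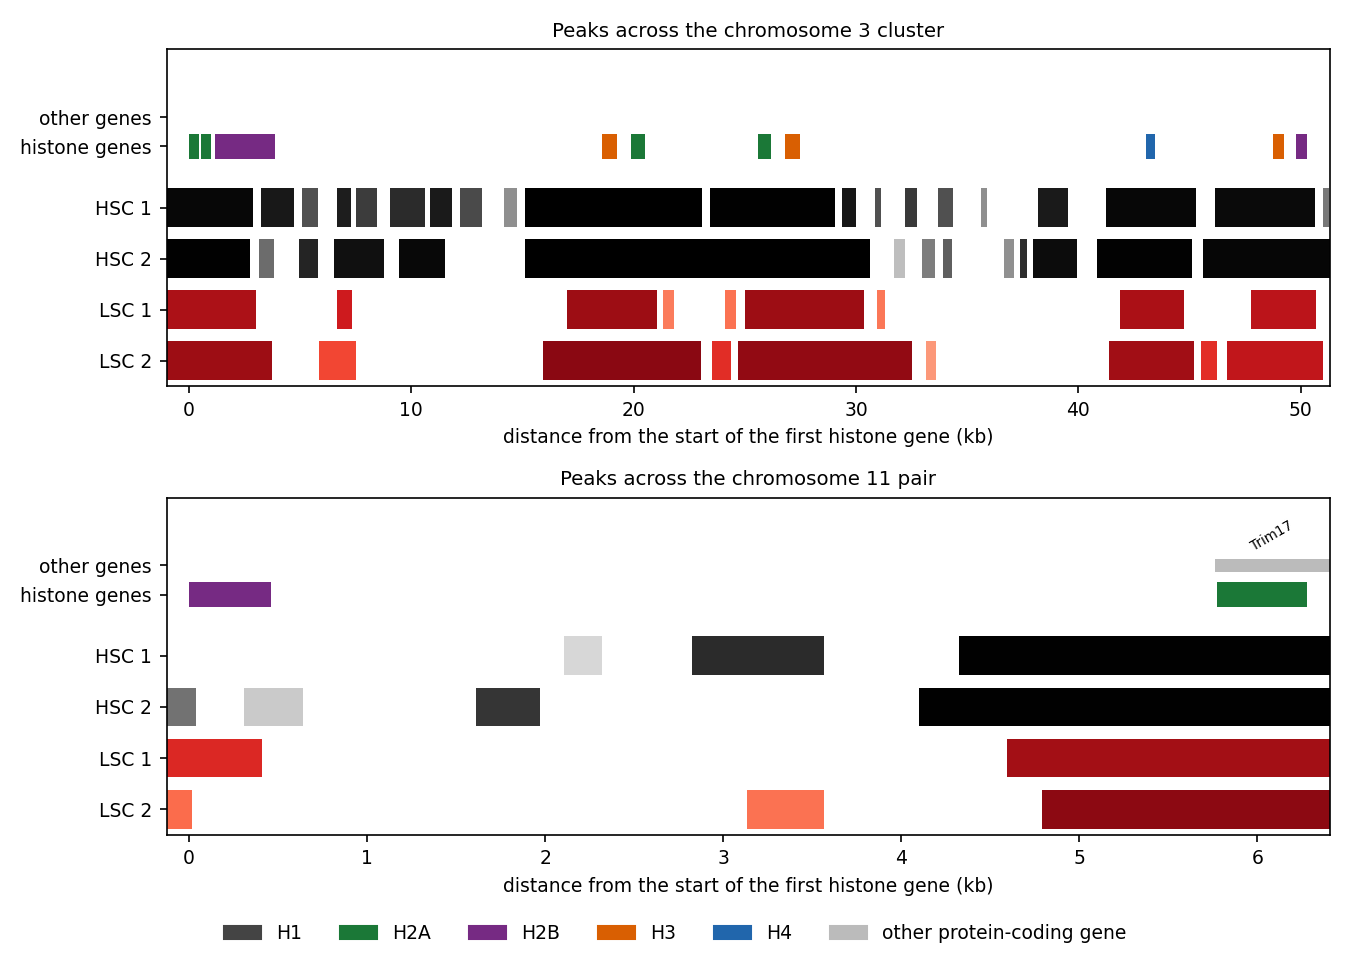
Peaks of each library (grey in HSCs, red in LSCs, darker for a higher percentile among the peaks of the library) and genes along the chromosome 3 cluster and the chromosome 11 pair, by distance from the first histone gene in kb. On chromosome 3 peaks cover 72.3% and 75.2% of the span in HSCs and 40.6% and 60.2% in LSCs, and on chromosome 11 a strong peak lies at H2aw and weak ones near H2bu2.

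The histone promoters are low in GC and the genes are short, so the count was also taken among genes alike in these. Among genes with promoter GC of 50% or less, 42 of 46 histone genes were higher in both HSC libraries, against 29.8% of all 779 such genes. Among genes of 1 kb or shorter it was 52 of 56 histone genes, against 13 of 43 other genes (30.2%). These are descriptions over genes of the same 4 libraries.

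Genes that work with the histone genes carried peaks in every library, and few stood higher in the HSC rankings. All 27 genes of a list for the histone locus body and histone messenger RNA processing, and all 28 genes of a list for histone chaperones and nucleosome assembly, were occupied in each library, where 55.4% of all genes were occupied in all 4. Of 22 of the former with a start peak in all 4 libraries, 1 was higher in both HSC libraries (4.55%, against 21.7% of all genes) and 7 in both LSC libraries (31.8%, against 24.8%), with a median difference of -2.024 points. Of 26 of the latter it was 5 (19.2%) and 8 (30.8%), near the shares of all genes, with -0.3209. Npat, the organiser of the histone locus body, had folds of 28.2, 35.2, 124 and 115 in HSC 1, HSC 2, LSC 1 and LSC 2 and its peak was number 5479, 5652, 4455 and 2456. Slbp, the stem-loop binding protein gene, had folds of 96.5, 66.5, 215 and 245. Casp8ap2, which encodes a further histone locus body protein, had 27.8, 57.1, 188 and 128.

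Histone variant genes expressed outside S phase were nearly all occupied as well. Of 9 such genes, HSC 1 had a peak at 9 and each other library at 8 (68.9%, 82.4%, 61.8% and 57.3% of all genes in HSC 1, HSC 2, LSC 1 and LSC 2), and Macroh2a2 had 1 weak peak of fold 3.93 in HSC 1 alone. Of 7 with a start peak in all 4 libraries, 2 were higher in both HSC libraries (28.6%, near the 21.7% of all genes) and 0 in both LSC libraries (24.8% of all genes), with a median difference of 6.109 points. H2ax, the variant phosphorylated at DNA breaks, had folds of 66.3, 78.4, 256 and 217 and peaks numbered 439, 926, 444 and 230. Its peaks thus stood near the top of all 4 lists, where no peak of a clustered histone gene stood in the LSC libraries. H2ax ranked highest of the 9 genes in both LSC lists. The lowest ranked of those with a peak, H3f3b, had peaks numbered 9169 in LSC 1 and 8160 in LSC 2, among the ranks of the clustered genes. The difference between these lists and the clustered genes was not tested.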

How the data were processed

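Sub1 CUT&Tag was measured in 4 libraries, 2 HSC and 2 LSC, grouped by their titles, and each had 1 deposited narrowPeak list on mm10. The submitters' processing notes name FastQC 0.11.5, Bowtie2 2.2.9, MACS2 and ChIPseeker, without settings. Per the file format, the authors deposited for each peak its position and summit offset, an integer score, a fold (ratio over background) and -log10 p and q. The lowest -log10 q was 5.21, 5.26, 5.36 and 5.41 in HSC 1, HSC 2, LSC 1 and LSC 2. Each list fitted 1 constant background per library, 3.07, 7.47, 4.54 and 4.5 reads, so fold and -log10 p order peaks identically, and no control library was used here. Read depth is unknown, which leaves presence and rank as the measures. Peaks and genes are annotated on GRCm38.p6 (RefSeq), and no exon table was used.

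A member was occupied when a peak overlapped the gene extended by 1 kb. A peak over several members counted once among distinct peaks. Library values were compared by an exact two-sided permutation test over the 6 assignments of 4 libraries. Genes named in the text were the 10 members with the highest percentile in their weakest library, the first of each class, members in 1 cell type alone, and fixed lists. Others, such as H2ac22, H3c11 and H1f2, were named after their values were seen. The members and lists were chosen with earlier results of these data known. Alternatives were the window, the summit, stricter q and fold, lists of equal length, other member rules, each library left out and a replicate block. The analysis ran in Python 3.11.15 with pandas 2.3.3, NumPy 2.4.6 and SciPy 1.17.1, and figures were drawn in matplotlib 3.10.9. Scripts were tested on simulated data.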

Additional observations from a re-analysis of the deposited data

How the results depend on the processing

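With 2 libraries a group the smallest permutation p is 0.33, so no difference here could pass a threshold of 0.05, and depth limits weak peaks in a way the lists do not show. The difference in members occupied (2.5 members, HSC minus LSC) turned to -1.5 with a fold of at least 20, to -1.5 in lists of 34185 peaks and to -0.5 in lists of 17092 peaks, and was 0.0 over the replication-dependent members. The difference in distinct peaks (33.5) turned to -1.5 with a fold of at least 20. Members in HSCs alone numbered 2 with the summit inside the window, 2 with a fold of at least 20 and 21 in lists of 4273 peaks (1.67% of all genes). With a library left out they numbered 0 to 4. Members in LSCs alone numbered 3 with the summit inside the window, 2 with a fold of at least 20 and 1 in lists of 34185 peaks (2.59% of all genes). The shares of all genes under the summit rule, the fold rule and a left-out library are not given here. Those counts therefore cannot be set against all genes. The cause of these changes was not tested. The difference in occupied share between chromosomes 13 and 3 (-2.778 points) was -14.35 with a fold of at least 20, -25.37 with the summit inside the window and -25.0 in lists of 4273 peaks, with the same direction. The difference in gene percentile (19.18 points) ran from 15.33 to 20.4 under 4 other settings and from 16.95 to 21.42 with a library left out, beside 5.315 under the summit rule given above. The labels do not say that equal replicate numbers pair libraries. With the replicate block the differences were 2.5 members (p = 1.0, exact permutation test), 33.5 peaks, 20.77 percentile points and 19.18 points (p = 0.5 each, exact permutation test, the smallest value a block of 2 pairs allows). The deviations of same-numbered libraries from their group means in gene percentile had a correlation of 0.34 over 8712 genes, which are not independent replicates.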
